A study of Mus musculus with 6 samples.

Results

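The insulin receptor signalling core examined here comprised 9 genes, chosen by name as parts of the pathway: the receptor gene *Insr*, the docking protein genes *Irs1* and *Irs2*, the phosphoinositide 3-kinase (PI3K) genes *Pik3r1* and *Pik3ca*, the kinase gene *Akt2*, the adaptor genes *Grb10* and *Grb14*, and the transcription factor gene *Foxo1*. All 9 were found among the 24421 gene symbols of the count tables and all 9 had enough counts to be tested. In 3T3-L1 adipocytes, fat cells made in culture from a mouse fibroblast-like line, RNA-Seq compared an adenovirus carrying *LacZ* (AdLacZ, the control) with one carrying *Lmo3* (Ad*Lmo3*). Each group held 3 libraries from separate infections. Both groups had gone through the same differentiation with insulin (870 nM), a thiazolidinedione (TZD, 5 µM), dexamethasone (1 µM) and IBMX (500 µM), and insulin and TZD were kept in the medium after the first days. They were infected on day 7 with 100 pfu/cell, and RNA was taken 72 h later. The cells are a single line, whose labels name the strain C57BL/6, and every library had received a virus, so that the effect of infection itself was not part of the comparison.

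Insulin binds its receptor, a tyrosine kinase at the cell surface, which then phosphorylates the IRS docking proteins. These recruit PI3K, a complex of a regulatory and a catalytic subunit, whose lipid product activates AKT. In adipocytes AKT2 is the isoform best known for moving the glucose transporter GLUT4 to the surface, and AKT also keeps FOXO1 out of the nucleus. GRB10 and GRB14 bind the active receptor and restrain it. The measurements below concern mRNA only: receptor number, phosphorylation and the place of FOXO1 in the cell were not measured in these files. In bulk RNA, fewer cells of a type and less RNA per cell cannot be told apart.

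The libraries held 28035639 to 38332335 counts on genes, and 3 counts, taken as the smallest detectable level, corresponded to 0.0768 to 0.111 CPM (counts scaled to library size), a floor that covers counting error only. Of 12766 genes tested with edgeR's quasi-likelihood test, 547 (4.28%) had a Benjamini-Hochberg adjusted p-value under 0.05, 346 of them (2.71%) higher and 201 (1.57%) lower in Ad*Lmo3*. *Lmo3* itself had 0 counts in all 6 libraries. The viral *Lmo3* was codon-optimized, so this gene could not check the labels. The adipocyte identity was visible in both groups: 12 of 12 adipocyte markers were tested, and their summed level was 21002 to 23182 CPM in AdLacZ and 28572 to 34285 CPM in Ad*Lmo3*.

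None of the 9 core genes passed the threshold of 0.05 in edgeR's test. At an unadjusted p under 0.05 there were 6 of 9 (*Insr*, *Irs1*, *Irs2*, *Pik3r1*, *Akt2* and *Foxo1*), where 20.6% of all tested genes were that low. In these same 6 genes each Ad*Lmo3* library was above each AdLacZ library, and 26.5% of all tested genes had groups that did not overlap in either direction. The fitted log2 fold change was above 0 for 6 core genes and below 0 for 3, with a median of 0.28, beside a median of 0.0014 and 50.4% above 0 over all tested genes. By DESeq2, the tool named in the study's methods, 4 core genes (*Irs1*, *Irs2*, *Pik3r1* and *Akt2*) passed 0.05, and by limma voom only *Akt2* did. Over the 12766 genes tested, 1110 passed with DESeq2 and 562 with limma voom, against 547 with edgeR. The calls on these genes thus differed between tests. The direction of the 6 genes was the same in every alternative run. With groups that do not overlap, leaving out a library could hardly reverse that direction, and the other runs used the same counts. The unchanged direction therefore adds little to the absence of overlap.

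**Figure D1:**
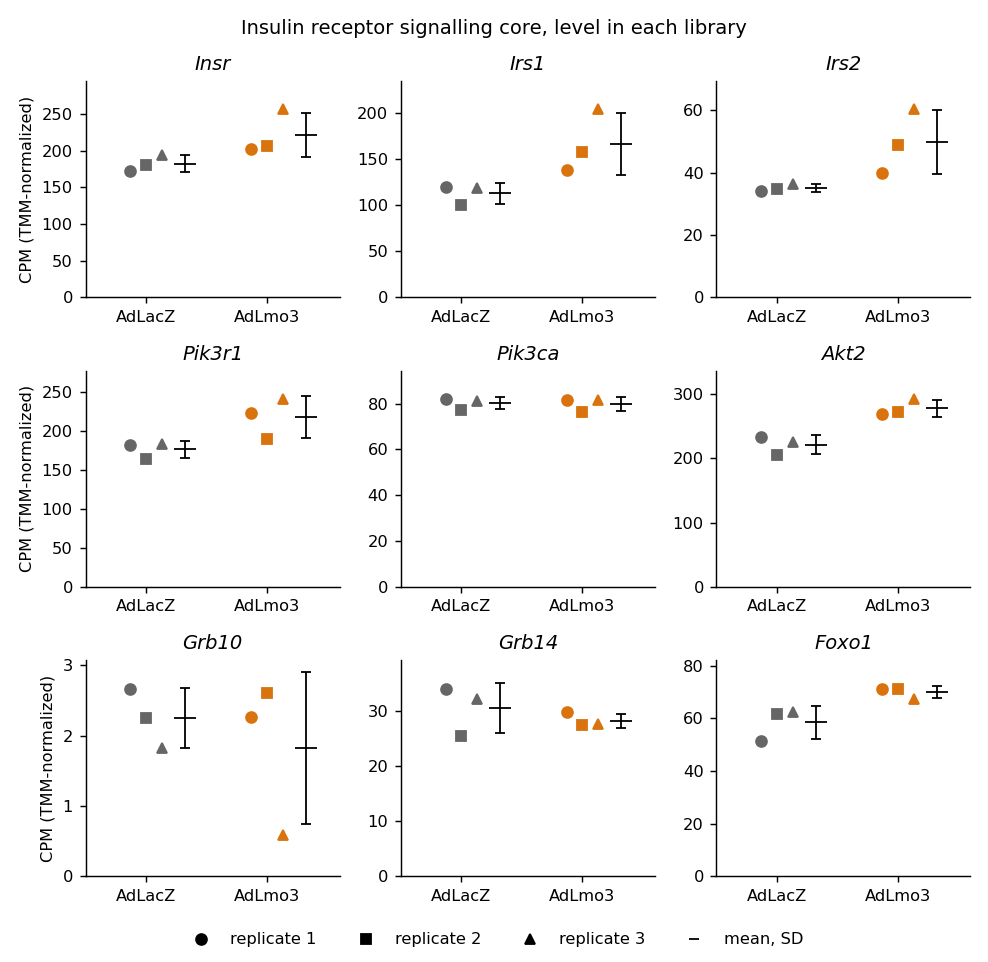
TMM-normalized CPM of the 9 core genes (y axes, linear, starting at 0, 1 scale per gene) in each AdLacZ (grey) and Ad*Lmo3* (orange) library, with the replicate number as the symbol and the mean and SD beside the points. The groups are apart in 6 of the 9 panels and overlap for *Pik3ca*, *Grb10* and *Grb14*.

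*Insr* encodes the insulin receptor and lies at chr8:3122061-3279617 on the minus strand of GRCm38. Its level was 171, 180.3 and 194 CPM in AdLacZ replicates 1, 2 and 3, and 203, 206 and 256 CPM in Ad*Lmo3* replicates 1, 2 and 3. The groups did not overlap, and Ad*Lmo3* replicate 3 stood above the other two of its group. The means were 182 ± 11.4 and 222 ± 30.2 CPM (SD, n = 3 each), a fitted fold change of 1.22 (95% confidence interval 1.03 to 1.44) with an adjusted p of 0.168 in edgeR. Without Ad*Lmo3* replicate 3 the log2 fold change was 0.17 in place of 0.28. The tested genes whose log2 levels over the 6 libraries were most like those of *Insr*, among 9147 with a mean of at least 10 CPM, were *Ccdc50* (Pearson r = 0.997), *Cep170* (r = 0.992) and *9330102E08Rik* (r = 0.991). The 6 points of these correlations share the difference between the groups and the position of single libraries.

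*Irs1* and *Irs2* encode the docking proteins that carry the signal from the receptor to PI3K, and they had the largest fitted fold changes of the core. Among the 8 core genes with an entry in the RefSeq promoter table (GRCm38.p6, 250 bases before to 50 bases after the start site, 13 windows in all; *Insr* had none), only *Irs1* and *Irs2* held any of the 4 motifs searched on both strands. Their windows are shown because both hold CACGTG, the E-box, and TGTTTTG, the insulin response sequence described in some insulin-regulated promoters, a motif that was added to the search after the sequences were seen. The windows lie at chr1:82291390-82291689 and chr8:11008880-11009179, both read 5′ to 3′ on the minus strand, and capitals mark the 2 motifs.
Irs1: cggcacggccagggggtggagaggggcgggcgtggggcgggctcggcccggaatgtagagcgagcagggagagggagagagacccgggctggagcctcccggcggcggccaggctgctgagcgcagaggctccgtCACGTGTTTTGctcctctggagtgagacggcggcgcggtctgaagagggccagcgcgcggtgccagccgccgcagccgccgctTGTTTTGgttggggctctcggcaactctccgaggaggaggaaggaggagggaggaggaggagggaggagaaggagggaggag
Irs2: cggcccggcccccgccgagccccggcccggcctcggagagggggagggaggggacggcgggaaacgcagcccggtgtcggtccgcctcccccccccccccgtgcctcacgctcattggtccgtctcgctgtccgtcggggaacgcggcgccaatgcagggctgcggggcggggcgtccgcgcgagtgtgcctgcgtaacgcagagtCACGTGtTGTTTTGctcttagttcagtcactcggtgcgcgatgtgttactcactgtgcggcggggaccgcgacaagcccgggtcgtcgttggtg
In the *Irs1* window CACGTG begins 115 bases before the start site and TGTTTTG begins 111 and 32 bases before it, the first overlapping the E-box by its letters TG. In the *Irs2* window CACGTG begins 44 and TGTTTTG 37 bases before the start. Of 32851 promoters of the same length, 7.15% held CACGTG and 6.28% held TGTTTTG. The letters GTAAACA, a form of the FoxO motif found in 3.65% of the promoters, were in none of the 13 core windows. The same held for AGGTCA, a nuclear receptor half-site found in 16.3%. Only exact letters were searched, so this does not show that the windows lack sites for FoxO proteins. The matches are a description of letters, and no binding was measured.

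The level of *Irs1* (chr1:82233101-82291416, minus strand) was 119.6, 99.6 and 118 CPM in the AdLacZ and 137, 157 and 204 CPM in the Ad*Lmo3* libraries, in the order of the replicates. Each Ad*Lmo3* library was above each AdLacZ library, and the spread within Ad*Lmo3* (20.5% of the mean) was wider than within AdLacZ (9.97%). Means of 113 ± 11.2 and 166 ± 34.1 CPM (SD, n = 3 each) gave a fold change of 1.48 (95% interval 1.17 to 1.86) and an adjusted p of 0.0729 in edgeR, and the adjusted p over the alternatives ran from 0.00147 (DESeq2) to 0.196. The log2 fold change of 0.56 became 0.39 without Ad*Lmo3* replicate 3, and *Irs1* passed the threshold without Ad*Lmo3* replicate 1 (0.69, adjusted p = 0.0288, edgeR). In the annotation, 30.9% of the exon bases of *Irs1* are overlapped by *Gm9747* on the opposite strand, a symbol that the count tables do not hold. Since the strand setting of the counting is not given in the sources used here, reads of both genes may not have been separated.

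*Irs2* (chr8:10984681-11008458, minus strand) had 34.1, 34.8 and 36.5 CPM in the AdLacZ libraries, the narrowest spread relative to the mean of any core gene but *Pik3ca* in that group. In Ad*Lmo3* it had 39.8, 48.9 and 60.3 CPM, so that the groups did not overlap but Ad*Lmo3* replicate 1 lay close to the controls. The means of 35.1 ± 1.22 and 49.7 ± 10.3 CPM (SD, n = 3 each) differed by a fold of 1.41 (95% interval 1.14 to 1.75), with an adjusted p of 0.0833 in edgeR and from 0.00701 to 0.217 over the alternatives. *Irs2* also passed the threshold without Ad*Lmo3* replicate 1 (log2 fold change 0.64, adjusted p = 0.0160, edgeR), and the log2 fold change was 0.34 without Ad*Lmo3* replicate 3. The log2 ratio of *Irs1* to *Irs2* counts within a library was 1.68 ± 0.149 in AdLacZ and 1.74 ± 0.0521 in Ad*Lmo3* (SD, n = 3 each), a difference of 0.07 (exact permutation test, two-sided, p = 0.7), and the groups overlapped.

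The regulatory and the catalytic subunit of PI3K differed in their values. *Pik3r1* encodes p85α with its shorter forms and lies at chr13:101680563-101768217 on the minus strand. It had 182, 163 and 183 CPM in AdLacZ and 223, 189 and 241 CPM in Ad*Lmo3*, with replicate 2 the lowest of each group and no overlap between the groups. The means were 176 ± 11.0 and 217 ± 26.4 CPM (SD, n = 3 each), a fold change of 1.24 (95% interval 1.05 to 1.45) with an adjusted p of 0.131 in edgeR, 0.0405 in DESeq2, and at most 0.283 over the alternatives.

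*Pik3ca* encodes the catalytic p110α and lies at chr3:32397671-32468486 on the plus strand. Its level was 82.1, 77.4 and 81.3 CPM in AdLacZ and 81.7, 76.5 and 81.8 CPM in Ad*Lmo3*, so that the groups covered almost the same range. The fitted fold change was 0.997, with a 95% interval of 0.906 to 1.10 and an adjusted p of 0.980 in edgeR. This was the narrowest interval of the core, and the data do not tell apart the values inside it.

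Within each library the log2 ratio of *Pik3r1* to *Pik3ca* counts, which does not depend on how the libraries are scaled, was 1.14, 1.08 and 1.17 in AdLacZ and 1.45, 1.30 and 1.56 in Ad*Lmo3*. The groups did not overlap and the means differed by 0.30. The exact permutation test of 3 against 3 libraries cannot go below a two-sided p of 0.1, which was reached here (adjusted p = 0.25 over the 5 ratios computed).

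*Akt2*, at chr7:27591552-27640826 on the plus strand, came closest to the threshold. It had 233, 205 and 225 CPM in AdLacZ and 269, 272 and 293 CPM in Ad*Lmo3*, with a gap between the groups wider than the range within either group. The means were 221 ± 14.6 and 278 ± 12.9 CPM (SD, n = 3 each), a fold change of 1.26 (95% interval 1.12 to 1.42) and an adjusted p of 0.0508 in edgeR. The adjusted p ran from 0.00185 to 0.166 over 14 alternatives, of which 5 passed 0.05, and from 0.0667 to 0.166 when 1 library was left out. The annotation lists a pseudogene, *Akt2-ps*, that shares 6.06% of the 75-base stretches of *Akt2* and is not in the count tables.

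*Akt1*, the isoform found in most tissues, had mean levels of 247 ± 23.2 CPM in the controls and 233 ± 19.0 CPM with *Lmo3* (SD, n = 3 each; adjusted p = 0.674, edgeR). The log2 ratio of *Akt2* to *Akt1* counts was -0.18, -0.32 and 0.03 in AdLacZ and 0.08, 0.25 and 0.43 in Ad*Lmo3*. The groups were apart and the means differed by 0.41 (exact permutation test, two-sided, p = 0.1, the smallest possible; adjusted p = 0.25 over the 5 ratios).

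**Figure D2:**
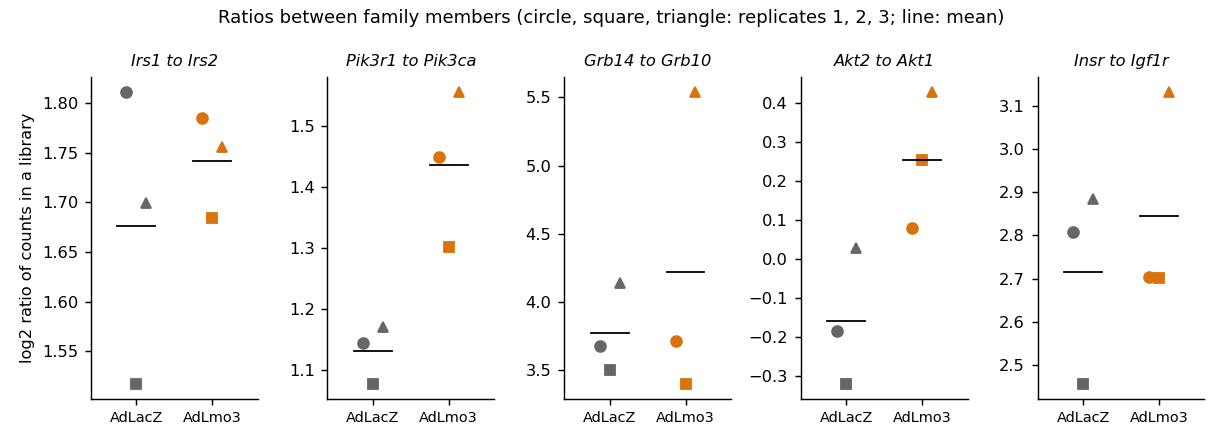
Log2 ratios of the counts of 2 genes within each library (y axes, 1 scale per panel, not starting at 0) for AdLacZ (grey) and Ad*Lmo3* (orange), with circles, squares and triangles for replicates 1, 2 and 3 and a line at the mean. The groups do not overlap for *Pik3r1* to *Pik3ca* and *Akt2* to *Akt1* and overlap for the other 3 ratios.

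The receptor-binding adaptors did not show the higher values of the genes above. *Grb14* (chr2:64912476-65024987, minus strand) had 34.1, 25.4 and 32.2 CPM in AdLacZ and 29.7, 27.5 and 27.6 CPM in Ad*Lmo3*, and the Ad*Lmo3* libraries lay inside the range of the controls. Its fitted fold change was 0.925 (95% interval 0.776 to 1.10, adjusted p = 0.629, edgeR). *Grb10* (chr11:11930508-12038683, minus strand) was the lowest of the core, with counts of 95, 88 and 62 in AdLacZ and 84, 96 and 16 in Ad*Lmo3*. The last value, from Ad*Lmo3* replicate 3, was 0.592 CPM, while the other 5 libraries had 1.83 to 2.67 CPM. The fold change of 0.827 had a 95% interval of 0.415 to 1.65 (adjusted p = 0.776, edgeR), and the data do not tell apart the values inside it. The spread was 59.2% of the mean in Ad*Lmo3* and 18.7% in AdLacZ. Without Ad*Lmo3* replicate 3 the log2 fold change of *Grb10* was 0.11 in place of -0.27. The log2 ratio of *Grb14* to *Grb10* likewise differed by 0.45 with and by -0.21 without it (exact permutation test with all libraries, two-sided, p = 0.8).

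*Foxo1* encodes the transcription factor that AKT phosphorylates and lies at chr3:52268336-52353221 on the plus strand. It had 51.4, 61.6 and 62.3 CPM in AdLacZ and 71.3, 71.1 and 67.5 CPM in Ad*Lmo3*. The groups did not overlap, and unlike the IRS genes the spread lay mainly in the controls, where replicate 1 was the lowest. The means were 58.4 ± 6.12 and 69.95 ± 2.17 CPM (SD, n = 3 each), a fold change of 1.20 (95% interval 1.05 to 1.37) and an adjusted p of 0.128 in edgeR. In the annotation 7.78% of the *Foxo1* exon bases are overlapped by *Gm20402* on the opposite strand, which the count tables do not list.

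**Figure D3:**
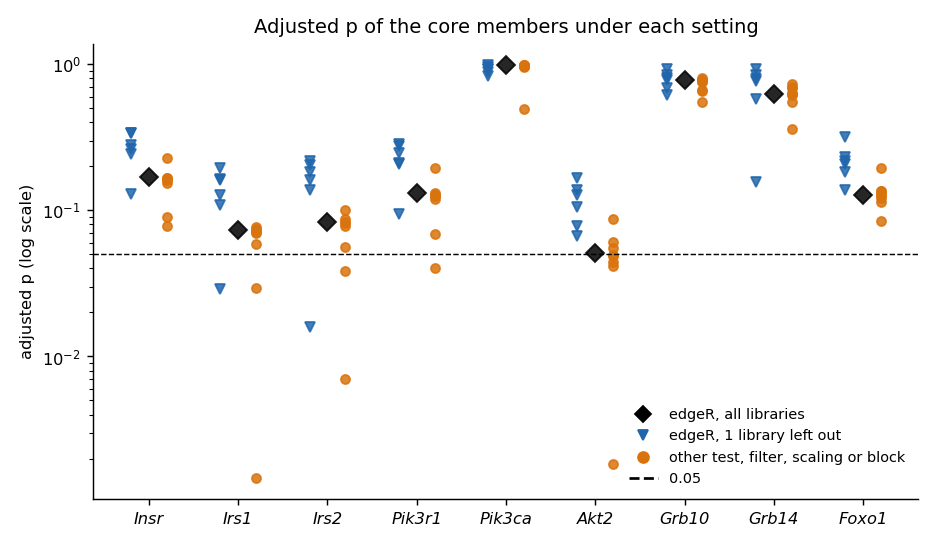
Adjusted p (y axis, log scale) of the 9 core genes in edgeR with all libraries (black diamonds), with 1 library left out (blue triangles) and with another test, filter, scaling or block (orange circles), and a dashed line at 0.05. *Irs1*, *Irs2*, *Pik3r1* and *Akt2* have points on both sides of the line, and the other 5 genes have all points above it.

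Compared per kilobase of merged exons, *Akt2* was the most abundant core transcript in AdLacZ (30.99 CPM per kilobase), followed by *Pik3r1* (17.5), *Insr* (13.2), *Irs1* (12.3), *Pik3ca* (8.83), *Foxo1* (6.74), *Irs2* (5.55), *Grb14* (4.25) and *Grb10* (0.248). Only *Insr* and *Irs1* had overlapping library values among neighbours in this order. In Ad*Lmo3* the order began with *Akt2* (38.95 CPM per kilobase) and *Pik3r1* (21.6), and *Irs1* (18.2) stood before *Insr* (16.1). There the libraries of *Pik3r1* and *Irs1*, of *Irs1* and *Insr*, and of *Foxo1* (8.07) and *Irs2* (7.86) overlapped, so that these neighbours did not differ beyond their spread. *Pik3ca* had 8.80, *Grb14* 3.93 and *Grb10* 0.201 CPM per kilobase. The place of *Grb14* depended on the length used: divided by its longest transcript it had 10.9 CPM per kilobase in AdLacZ and stood above *Pik3ca*, whose library values it overlapped there.

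**Figure D4:**
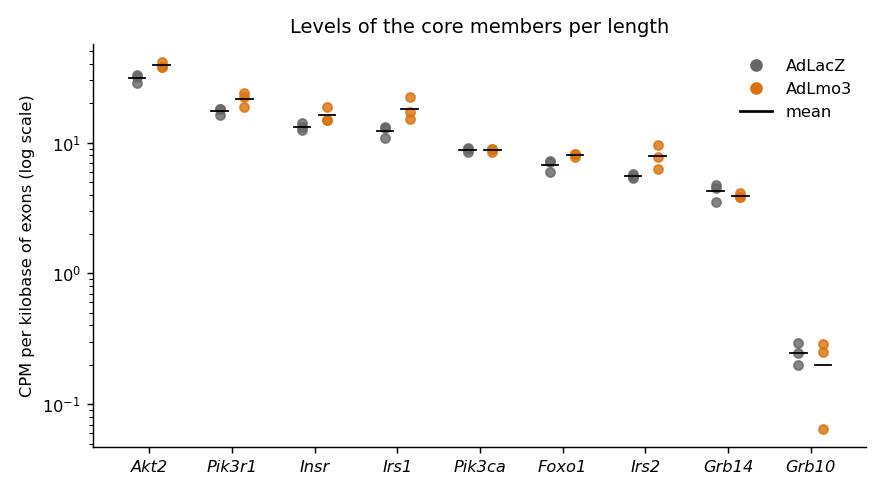
CPM per kilobase of merged exons (y axis, log scale) of the 9 core genes in the 3 AdLacZ (grey) and 3 Ad*Lmo3* (orange) libraries, with a line at each mean, ordered by the AdLacZ mean. *Akt2* stands highest at 30.99 and 38.95, and *Grb10* lowest at 0.248 and 0.201.

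Cell type markers and interferon response genes were read beside the core. Of 12 adipocyte markers, 9 rose in Ad*Lmo3* (adjusted p under 0.05, edgeR) and none fell, where 2.71% of all tested genes rose. Without AdLacZ replicate 3 the 9 became 2 (*Retn* and *Cidec*), without AdLacZ replicate 2 or Ad*Lmo3* replicate 2 they became 5, and without AdLacZ replicate 1 they became 6. Over all genes the number called higher also fell in these fits, from 346 to 55, 160, 107 and 183 in the same order. The largest log2 fold changes were those of *Retn* (1.44), *Adipoq* (1.05), *Cfd* (0.81), *Cidec* (0.69), *Fabp4* (0.62) and *Lipe* (0.59), genes for secreted and lipid-handling proteins of the fat cell. None of 11 preadipocyte markers passed (summed level 16351 to 21251 CPM in AdLacZ and 16042 to 24347 CPM in Ad*Lmo3*). Of 6 macrophage and endothelial markers, 3 had at most 3 counts in every library, and the list summed to 1.98 to 2.43 CPM in AdLacZ and 1.22 to 2.08 CPM in Ad*Lmo3*. Ad*Lmo3* replicate 3 was the highest of its group for 6 of the 9 core genes and the lowest for 2. In AdLacZ, replicate 1 was the highest for 5. The summed level of the adipocyte markers was also highest in Ad*Lmo3* replicate 3 (28572, 32730 and 34285 CPM in replicates 1, 2 and 3). So was that of 12 interferon response genes. The interferon sum was 733, 1544 and 3715 CPM in Ad*Lmo3* replicates 1, 2 and 3 and 1357 to 1843 CPM in AdLacZ. None of the 12 interferon genes passed the threshold. The part of adipocyte marker level and of the interferon response in the values of the core genes was not tested.

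Around the core, a list of 51 further genes of insulin signalling held 48 tested genes, of which 2 rose, 1 fell and 45 did not pass the threshold in edgeR. This share lies near the 4.28% of all tested genes. Their median log2 fold change was 0.02, with 26 genes above and 22 below 0, and 14 had groups that did not overlap, near the 26.5% of all tested genes.

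Of the receptors, *Igf1r* (27.9 ± 4.41 CPM in the controls, 30.7 ± 1.26 CPM with *Lmo3*, SD, n = 3 each) did not pass (adjusted p = 0.550, edgeR), and *Insrr* was too low to be tested. The log2 ratio of *Insr* to *Igf1r* differed by 0.13 between the groups (exact permutation test, two-sided, p = 0.6), and the groups overlapped. Of 10 tested docking and adaptor genes, 1 rose. This was *Sh2b2*, which encodes the adaptor APS that binds the activated receptor. It had 89.9, 118.8 and 88.9 CPM in AdLacZ and 139.5, 143 and 145 CPM in Ad*Lmo3*, with all Ad*Lmo3* libraries above the controls and close to each other. Its log2 fold change was 0.52 (SE 0.113, adjusted p = 0.0437, edgeR), and it kept its call in 1 of the 6 fits that left out a library, the fit without AdLacZ replicate 2.

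None of the 4 other PI3K subunit genes passed. *Pik3r2*, the most abundant, averaged 177 ± 18.6 CPM in the controls and 173 ± 19.3 CPM with *Lmo3* (SD, n = 3 each; adjusted p = 0.909, edgeR). *Pik3r3*, picked out after its values were seen, had 82.6, 66.3 and 81.2 CPM in AdLacZ and 63.3, 57.8 and 65.4 CPM in Ad*Lmo3*. For this regulatory subunit the groups did not overlap, with Ad*Lmo3* the lower (log2 fold change -0.30, SE 0.0953, adjusted p = 0.123, edgeR), opposite in sign to *Pik3r1*. In the annotation 24.3% of its exon bases are overlapped by *Gm49337* on the same strand.

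Of 13 AKT and mTOR genes, 1 rose. *Eif4ebp1*, which encodes the translation repressor 4E-BP1 that mTORC1 phosphorylates, had 225, 239 and 217 CPM in AdLacZ and 329.6, 374 and 390.1 CPM in Ad*Lmo3*. The groups lay well apart, and the log2 fold change was 0.68 (SE 0.0831, adjusted p = 0.00593, edgeR, and 0.0529 without AdLacZ replicate 3). Averaged over all 6 libraries it was the most abundant gene of its group, while *Akt1* was higher in AdLacZ. The other 12 genes of the group, for kinases and for the subunits and regulators of mTOR complexes, did not pass.

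None of 7 genes for AKT substrates and PDE3B passed the threshold. Their fold changes were above 0 for 3 genes and below 0 for 4, with a median log2 fold change of -0.05. *Pde3b* and *Tbc1d4*, described here, are both among the 3 above 0. *Pde3b*, the most abundant of the 7, encodes the phosphodiesterase through which insulin lowers cyclic AMP and lipolysis. It had 234, 294 and 318 CPM in AdLacZ and 356, 424 and 418 CPM in Ad*Lmo3*, with no overlap (log2 fold change 0.50, SE 0.123, adjusted p = 0.0646, edgeR, and 0.00128 to 0.209 over the alternatives). *Tbc1d4*, the AKT substrate AS160 that holds back GLUT4 vesicles, was picked out after its values were seen. It had 53.7, 58.6 and 57.3 CPM in AdLacZ and 66.6, 66.3 and 72.5 CPM in Ad*Lmo3* (log2 fold change 0.28, SE 0.0654, adjusted p = 0.0583, edgeR, and 0.0217 to 0.178 over the alternatives).

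Of 13 tested inhibitors of the pathway, 1 fell. *Trib3*, a pseudokinase gene described as binding AKT and responding to cell stress, had 299, 319 and 344 CPM in AdLacZ and 175, 198 and 137 CPM in Ad*Lmo3*. Every Ad*Lmo3* library was far below the controls (log2 fold change -0.91, SE 0.130, adjusted p = 0.0111, edgeR, and 0.0671 without AdLacZ replicate 3). *Inppl1*, a lipid phosphatase gene picked out after its values were seen, had 194, 215 and 205 CPM in AdLacZ and 177, 176 and 179.9 CPM in Ad*Lmo3* (log2 fold change -0.21, adjusted p = 0.126, edgeR). In the annotation 20.3% of its exon bases are overlapped by *Gm10602* and *Phox2a* on the opposite strand. Across the 13 tested inhibitors 8 fold changes were above and 5 below 0 (50.4% above 0 over all tested genes). Their median log2 fold change was 0.06, and *Trib3* and *Inppl1* are both among the 5 below 0.

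**Figure D5:**
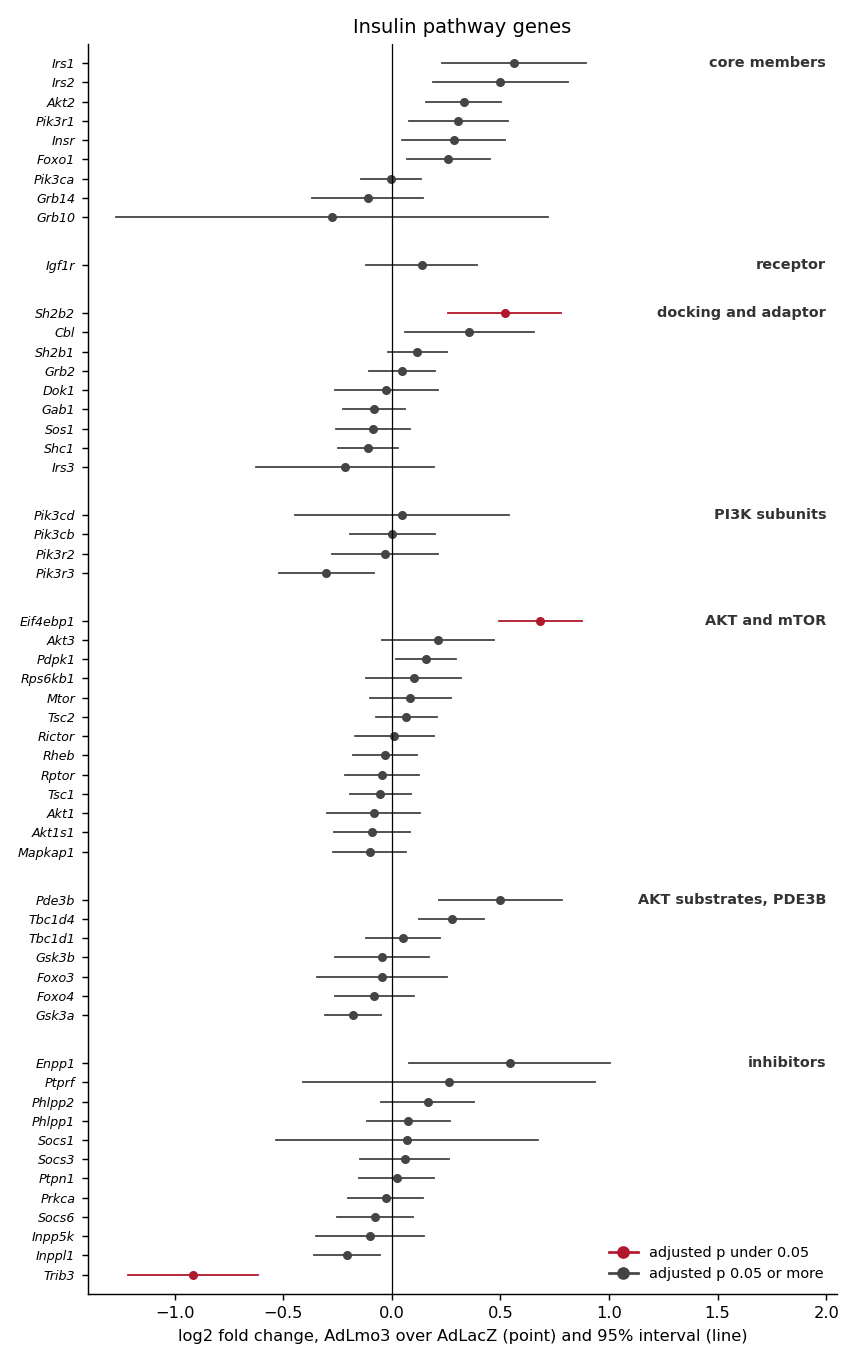
Log2 fold change of Ad*Lmo3* over AdLacZ (x axis, point) with its 95% interval (line) from edgeR for the 9 core genes and 46 tested genes of the wider insulin pathway, grouped by role, with genes past an adjusted p of 0.05 in red. *Sh2b2* (0.52) and *Eif4ebp1* (0.68) lie to the right and *Trib3* (-0.91) to the left, while the core genes lie between -0.27 and 0.56 and are not past the threshold.

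Downstream of the core, 15 genes known as FOXO1 targets in some tissue, *Insr* and *Irs2* among them, held 14 tested genes, of which 2 rose, none fell and 12 did not pass (edgeR), beside 2.71% of all tested genes that rose. Without AdLacZ replicate 3 only *Pck1* passed, and without Ad*Lmo3* replicate 1 there were 4 that rose. Over all genes those fits called 55 and 354 higher, against 346 with all libraries. *Pnpla2*, which encodes the triglyceride lipase ATGL, had 984, 919 and 916 CPM in AdLacZ and 1326, 1383 and 1472 CPM in Ad*Lmo3* (log2 fold change 0.57, adjusted p = 0.00869, edgeR). *Pck1*, the PEPCK gene of glyceride synthesis, had 342, 272 and 257 CPM in AdLacZ and 606, 668 and 713 CPM in Ad*Lmo3* (log2 fold change 1.19, adjusted p = 0.00352, edgeR). Across the 14 tested targets 9 fold changes were above and 5 below 0 (50.4% above 0 over all tested genes), with a median log2 fold change of 0.20. *Igfbp1* had 0 counts in all libraries.

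Of 8 genes known to be induced by insulin in fat or liver cells, 3 rose and 1 fell, beside 2.71% and 1.57% of all tested genes. Without AdLacZ replicate 3 these became 2 and 0, in a fit that called 55 higher and 22 lower over all genes. The risers were the lipogenic genes *Fasn* (log2 fold change 1.17, adjusted p = 0.00686, edgeR), *Scd1* (1.09, adjusted p = 0.00352) and *Thrsp* (1.66, adjusted p = 0.00110). *Elovl6*, which encodes an elongase of the same fatty acid pathway, went the other way, with 34.4, 25.4 and 29.9 CPM in AdLacZ and 19.6, 19.9 and 20.5 CPM in Ad*Lmo3* (log2 fold change -0.58, adjusted p = 0.0275, edgeR). Of the 6 fits that left out a library, *Elovl6* passed in 1, the fit without AdLacZ replicate 2. *Slc2a4*, which encodes GLUT4, had 364 ± 26.0 and 385 ± 34.1 CPM (SD, n = 3 each; log2 fold change 0.08, 95% interval -0.13 to 0.28, adjusted p = 0.675, edgeR), and *Slc2a4* was chosen for naming after its values were seen.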

How the data were processed

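RNA-Seq counts of 3 AdLacZ and 3 Ad*Lmo3* libraries of 3T3-L1 adipocytes were used. The authors sequenced 75 bp reads, mapped them with STAR 2.5.0b to mm10 (versions from the submitters' processing notes, which also name bcl2fastq and DESeq2 1.6.3) and deposited raw counts per gene symbol and library, without normalization. The counting program, its strand setting and the annotation are not given in the sources used here. Reads given to no gene (7.15% to 8.94%) or to several (0.476% to 0.543%) were left out of library sizes.

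The main test was the quasi-likelihood test of edgeR 4.0.16 (R 4.3.3) without a block, after filterByExpr and TMM scaling, with Benjamini-Hochberg adjustment over 12766 genes. CPM are TMM-normalized. The biological coefficient of variation was 0.119. No 2 replicates were alike within sampling noise (chi-square per degree of freedom 22.9 to 61.6). Alternatives used DESeq2 1.42.0, limma 3.58.1 (voom), other scaling and filters, the replicate block and leaving out each library. On simulated counts (12685 genes, 197 changed by 1 on the log2 scale) edgeR recovered 178, with 4.30% false calls among the genes called. Changes as small as those of the core genes (log2 fold change up to 0.56) were not simulated, so the recovery of such changes was not measured.

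The members and gene lists were chosen with earlier results of these data known. Named were all 9 core genes, list genes past the threshold (at most 6 per list, by size), the most abundant gene of each wider list where reported, and, for *Insr*, the 3 genes of highest correlation (CPM with 0.5 added, log2). Positions and exon overlaps came from GRCm38 with its GENCODE annotation, and promoters from RefSeq (GRCm38.p6). Confidence intervals are 95%. Protein sequences were not used here, and 2 genes of the wider lists are not reported here.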

Additional observations from a re-analysis of the deposited data

How the results depend on the processing

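Of the 504 fold changes of 36 named genes over 14 alternatives, 445 kept their direction and side of the threshold, 19 newly passed it, 34 no longer passed and 6 changed sign. The sign changes were *Pik3ca* (main log2 fold change -0.0045) at 0.01 without AdLacZ replicate 1, 0.0046 without AdLacZ replicate 3 and 0.028 without Ad*Lmo3* replicate 2 (-0.030 to 0.028 over the libraries left out), *Grb10* at 0.11 without Ad*Lmo3* replicate 3 (-0.61 to 0.11), and *Pik3r2* at 0.048 without AdLacZ replicate 1 and 0.051 without Ad*Lmo3* replicate 3 (-0.10 to 0.051). The cause was not tested.

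The number of core genes higher in Ad*Lmo3* past the threshold was 0 in edgeR and 4 with DESeq2, 1 with limma voom (*Akt2*), 1 with RLE scaling (*Akt2*), 1 with a filter of 1 CPM in 3 libraries (*Akt2*), 3 without a filter (*Irs1*, *Irs2*, *Akt2*) and 0 to 2 when a library was left out. Both calls of the last kind (*Irs1*, *Irs2*) came without Ad*Lmo3* replicate 1. None was lower in any alternative run. In the wider list, the 2 genes higher became 4 with DESeq2, 1 with library totals alone, and 0 to 2 with a library left out, and the 1 gene lower became 3 with library totals alone and 0 to 1 with a library left out. Without AdLacZ replicate 3 none of the wider list passed, and neither did *Pnpla2* (adjusted p = 0.0638, edgeR), *Fasn* (0.0558), *Elovl6* (0.117) or, of the adipocyte markers, *Adipoq* (0.0554), *Cfd* (0.0601), *Cebpa* (0.0601), *Pparg* (0.0801), *Lipe* (0.0840), *Plin1* (0.0840) and *Fabp4* (0.0947). *Txnip* passed without Ad*Lmo3* replicate 1 (log2 fold change 1.62, adjusted p = 0.000737, edgeR). Over all genes 547 passed in edgeR, 1110 with DESeq2 and 562 with limma voom. RLE scaling gave 542, the filter of 1 CPM 555 and no filter 659. With a library left out 77 to 501 passed (284, 238 and 77 without AdLacZ replicates 1, 2 and 3, and 501, 152 and 289 without Ad*Lmo3* replicates 1, 2 and 3). Scaling by totals alone called 266 higher and 501 lower genes, against 346 and 201 with TMM, and moved the median log2 fold change to -0.07.

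The groups share replicate numbers. Deviations of same-numbered libraries correlated by 0.05, 0.23 and 0.23 (mean of differently numbered -0.08, not independent of these), so pairing was not settled. With the replicate block 498 genes passed (348 higher, 150 lower, 400 shared with the fit without it), no core gene did (*Akt2* adjusted p = 0.0609, *Irs1* 0.0585, *Irs2* 0.0557, *Pik3r1* 0.0692, *Insr* 0.0895, edgeR), and *Pde3b* was added to the wider list (0.0218).

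With the longest transcript as length, CPM per kilobase in AdLacZ and Ad*Lmo3* were 19.5 and 23.7 for *Insr*, 24.7 and 30.6 for *Pik3r1*, 48.6 and 61.1 for *Akt2*, 0.445 and 0.360 for *Grb10*, and 10.9 and 10.1 for *Grb14*. Differences of log2 ratios with a library left out were -0.014 to 0.13 for *Irs1* to *Irs2*, 0.24 to 0.37 for *Pik3r1* to *Pik3ca*, -0.21 to 0.86 for *Grb14* to *Grb10*, 0.33 to 0.51 for *Akt2* to *Akt1* and -0.014 to 0.21 for *Insr* to *Igf1r*, where the values changed sign without AdLacZ replicate 2 (-0.00067) and without Ad*Lmo3* replicate 3 (-0.014).

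With 3 libraries per group, single ratios could not reach p under 0.1, and *Grb10*, at 16 to 96 counts, carried the widest interval of the core.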

Other observations

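The FOXO1 target list held 1 gene whose level split the Ad*Lmo3* libraries. *Txnip*, which encodes a thioredoxin-binding protein that responds to glucose, had 253, 265 and 242 CPM in AdLacZ and 209, 812 and 737 CPM in Ad*Lmo3* replicates 1, 2 and 3. Ad*Lmo3* replicate 1 lay below the controls and the other 2 libraries far above them, and the log2 fold change of 1.21 (SE 0.413) had an adjusted p of 0.148 in edgeR. *Txnip* was singled out after its values were seen, and 19.4% of its exon bases are overlapped by *Gm15441* on the opposite strand. In Ad*Lmo3* replicate 1 the interferon response list had its lowest sum (733 CPM, against 1544 and 3715 CPM in replicates 2 and 3). That library was the lowest of its group for 4 of the 9 core genes, *Irs2* (39.8 CPM) among them, and the highest for 2.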
